A study of Homo sapiens with 14 samples.

Results

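Distal H3K27ac in TC-32 cells was gathered into 250 clusters, each a run of 3 or more acetylated regions lying close together and away from the starts of protein-coding genes. TC-32 is an established Ewing sarcoma cell line that carries the EWSR1::FLI1 fusion. CUT&RUN, in which an antibody brings a nuclease to its target and the released DNA is sequenced, was run on TC-32 cells labelled WT, with no treatment, and with antibodies to FLI1 (sets A and B), H3K27ac (set A), H3K9me3 and H3K27me3 (both set B), with 2 replicates each and 4 IgG controls. The labels do not explain the set letters, and nothing in them says that replicates came from separate cultures, so p-values measure only the spread between these libraries. Values for the 4 FLI1 libraries are given in the order set A replicate 1, set A replicate 2, set B replicate 1, set B replicate 2. The lists do not separate the fusion from unfused FLI1, as the antibody is named only as FLI1.

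The members were chosen on H3K27ac alone. Of 17366 merged H3K27ac regions of set A replicate 2, 6702 (38.6%) overlapped a row of replicate 1, and 3433 of these lay more than 2.5 kb from every protein-coding transcript start. Neighbouring regions were stitched across gaps up to a fixed limit, which lay just above the widest gap joined, 12.498 kb. This gave 1583 regions alone, 406 pairs and 250 clusters of 3 or more. The clusters held 1038 regions, 30.2% of the distal ones, and the 2395 regions alone or in pairs serve below as the other distal regions. H3K27ac values of the members are therefore descriptions, and FLI1, H3K9me3, H3K27me3, sequence and genes were not used to choose them.

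H3K27ac is a histone mark of active enhancers and promoters, and enhancers that regulate genes of cell identity often lie in groups along the DNA. In Ewing sarcoma the fusion binds runs of the sequence GGAA, called GGAA microsatellites, and can open chromatin and recruit acetylating enzymes there. It also binds single ETS sites, whose core is the same GGAA, at promoters and enhancers. Genes that it activates in this way in Ewing sarcoma include PRKCB, a protein kinase C, and CAV1, the main protein of caveolae.

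The GGAA microsatellites of 7 clusters are shown first, because FLI1 had a summit within 250 bases of each of them in all 4 libraries. From 6 clusters they are the longest runs of which this held, where PRKCB, with 13 units, was taken over ZZZ3 and RERE, with as many, for its larger number of H3K27ac regions. That of JAK1, the largest cluster with a repeat, was added after its values were seen. Each sequence is hg38, read 5′ to 3′ on the strand where the run reads GGAA. Capitals mark perfect runs of at least 4 GGAA units, with 30 bases on either side in lower case. None touches an annotated exon.

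JAK1 repeat: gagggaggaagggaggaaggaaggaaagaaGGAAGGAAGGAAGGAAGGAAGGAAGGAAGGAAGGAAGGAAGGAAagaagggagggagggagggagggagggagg
PRKCB repeat: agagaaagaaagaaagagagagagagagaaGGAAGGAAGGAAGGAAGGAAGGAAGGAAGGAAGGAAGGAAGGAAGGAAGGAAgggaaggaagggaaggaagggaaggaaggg
SGIP1 repeat: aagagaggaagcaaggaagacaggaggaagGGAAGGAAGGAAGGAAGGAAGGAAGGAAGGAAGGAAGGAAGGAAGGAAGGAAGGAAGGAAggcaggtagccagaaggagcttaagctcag
IKZF2 repeat: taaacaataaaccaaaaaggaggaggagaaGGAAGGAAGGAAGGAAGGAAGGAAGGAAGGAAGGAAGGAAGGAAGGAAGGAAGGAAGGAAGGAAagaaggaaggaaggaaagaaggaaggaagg
NRDC repeat: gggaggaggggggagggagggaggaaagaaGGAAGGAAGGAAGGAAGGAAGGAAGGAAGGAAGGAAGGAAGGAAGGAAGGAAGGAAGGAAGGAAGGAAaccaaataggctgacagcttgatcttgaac
TAS2R16 repeat: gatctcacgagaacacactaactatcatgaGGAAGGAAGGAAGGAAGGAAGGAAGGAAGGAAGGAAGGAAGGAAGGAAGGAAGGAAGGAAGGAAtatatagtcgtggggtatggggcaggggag
BDP1 repeat: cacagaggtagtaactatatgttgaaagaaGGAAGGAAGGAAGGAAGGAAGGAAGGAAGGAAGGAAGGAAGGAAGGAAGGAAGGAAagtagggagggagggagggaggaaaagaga

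The names are those of the nearest protein-coding gene start. The JAK1 repeat (chr1:64913629-64913732, plus strand) has 11 units, the PRKCB repeat (chr16:23866968-23867079, minus strand) 13, the SGIP1 repeat (chr1:66549110-66549229, minus strand) 15 and the IKZF2 repeat (chr2:212902737-212902860, minus strand) 16. The NRDC repeat (chr1:51844791-51844918, plus strand) has 17 units, the TAS2R16 repeat (chr7:122971046-122971169, minus strand) 16 and the BDP1 repeat (chr5:71435200-71435315, minus strand) 14.

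The clusters were small. Their span, from the first to the last region, had a median of 9.21 kb, from 1.37 to 67.2 kb, and 63 spanned under 5 kb. There were 135 clusters of 3 regions, 61 of 4, and 22 of 7 or more. Together they spanned 2.87 Mb, of which H3K27ac regions covered 27.7%. Over the 788 gaps between neighbouring regions of a cluster the median was 0.930 kb, and 410 of them (52.0%) were under 1 kb. Counting regions within 1 kb of each other as 1, a setting chosen after the data were seen, left 99 clusters. Clustered regions had a median width of 590 bp, against 552 bp for the other distal regions, and a median percentile of deposited H3K27ac fold in replicate 2 of 64.6, against 61.6.

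At the edge of the rule, 35 gaps in the last 1 kb below the stitching limit were joined and 19 in the first 1 kb above it were not. The 406 pairs, just outside the rule on number, had a median span of 2.18 kb. Of the clustered regions, 197 (19%) lay within 2.5 kb of the start of a transcript of another biotype, which the rule did not remove, against 22.8% of the other distal regions. The label of enhancer was therefore checked only against protein-coding starts. That check was on the regions and not on the spans, which can hold such a start in a gap. The clusters in IGF1R, METTL24 and CAV2 did, and FLI1 counts over spans or gaps did not leave such starts out.

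**Figure D1:**
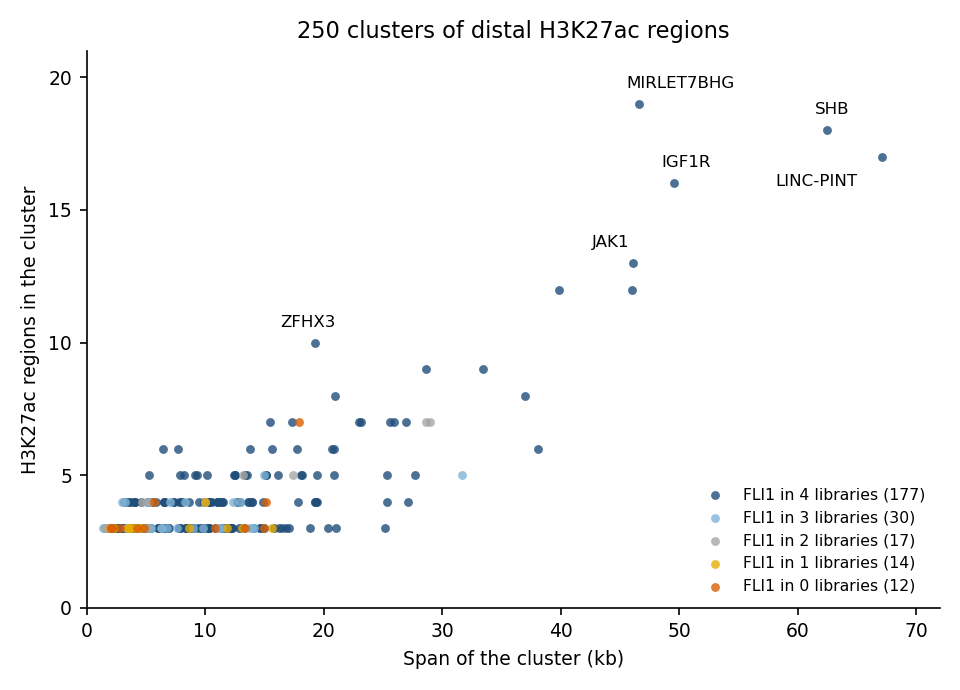
Each point is 1 of the 250 clusters, by its span (x axis, kb) and its number of H3K27ac regions (y axis), coloured by how many of the 4 FLI1 libraries had a region in the span. Most points lie under 20 kb and at 3 or 4 regions, and the clusters at MIRLET7BHG, SHB, LINC-PINT and IGF1R stand apart with 16 to 19 regions.

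The largest cluster, 19 regions over 46.6 kb (chr22:46038354-46084939), lay in MIRLET7BHG, the host transcript of let-7 microRNAs. Its 19 regions covered 27.3 kb, and H3K27ac replicate 1 covered 25.3 kb of the same span. The next, 18 regions over 62.5 kb (chr9:37985558-38048057), lay in SHB, an adaptor protein of tyrosine kinase signalling. A cluster of 17 regions spanned 67.2 kb (chr7:130886274-130953435) over the long non-coding genes LINC-PINT and LINC00513. One of 16 regions spanned 49.5 kb (chr15:98854071-98903615) within IGF1R, the receptor of insulin-like growth factor 1, on which Ewing sarcoma cells are known to depend. With starts of every biotype removed, not only protein-coding ones, MIRLET7BHG kept 3 regions, LINC-PINT 7 and IGF1R 6, while SHB kept 18.

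JAK1, a tyrosine kinase of cytokine receptors, held a cluster of 13 regions over 46.1 kb (chr1:64889001-64935101), 31.2 kb from the nearest protein-coding transcript start. KIRREL1, a cell adhesion protein, held 12 regions over 39.9 kb (chr1:157998490-158038385). METTL24, a methyltransferase-like protein, held 12 over 46.0 kb (chr6:110323829-110369842). ZFHX3, a transcription factor, held 10 over 19.3 kb (chr16:73025936-73045247). Completing the 10 largest, CUEDC1 held 9 over 28.6 kb (chr17:57920822-57949443), and a further 9 spanned 33.5 kb between genes near NUAK2, a kinase related to AMPK (chr1:205285092-205318580). The kept regions of replicate 2, then replicate 1, covered 17.9 and 15.9 kb at SHB, 21.1 and 18.4 kb at LINC-PINT, 14.4 and 13.4 kb at IGF1R, and 9.80 and 10.6 kb at JAK1. Only replicate 2 regions that overlapped replicate 1 were kept, so a like cover was partly set by the rule. At SHB it kept 18 of 25 replicate 2 regions.

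FLI1 was present in most clusters. Of the 250 spans, 216, 224, 210 and 196 held a FLI1 region in the 4 libraries (86.4%, 89.6%, 84.0% and 78.4%). All 4 libraries had FLI1 in 177 clusters (70.8%), and 12 clusters had none in any. A FLI1 region found in all 4 libraries lay in 168 clusters (67.2%), against 42.6% of pairs, 28.1% of regions alone and 35.1% of all stitched groups. Larger spans have more room for a FLI1 region, and the share with all 4 libraries was 61.5% of clusters of 3 regions, 77.0% of those of 4, 87.5% of those of 5 or 6 and 86.4% of those of 7 or more.

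Per 10 kb of span, FLI1 regions were fewer in the largest clusters than in the smallest. They numbered 2.34, 2.75, 2.49 and 1.98 in clusters of 3 regions, and 1.96, 2.36, 2.12 and 1.51 in clusters of 7 or more. The fall was not even, as clusters of 4 regions had 2.71 in set B replicate 1.

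The next comparison asked whether a clustered H3K27ac region overlaps FLI1 more often than another distal one. Overlap of at least 1 base was seen in 52.5%, 53.8%, 42.7% and 38.6% of clustered regions. For the other distal regions the shares were 41.1%, 43.4%, 37.7% and 32.7%, and over all distal regions the values were 44.6%, 46.5%, 39.2% and 34.5%. The difference, clustered minus other, was 11.4, 10.3, 4.93 and 5.98 percentage points. Its mean was 8.16 points ± 3.17 (SD, n = 4), above 0 in 4 of 4 libraries. A two-sided exact permutation test that flips signs over the libraries gave p = 0.13. With 4 libraries no lower p can be reached, and the Benjamini-Hochberg value over the 2 tests made was also 0.13. Set A FLI1 and H3K27ac share their IgG controls and set B FLI1 does not, and the part of this in the larger set A values was not tested. Neighbouring H3K27ac regions can also overlap the same FLI1 region. The 545, 558, 443 and 401 clustered regions with an overlap met 431, 481, 432 and 355 FLI1 regions. Of the others, 985, 1040, 904 and 782 met 968, 1064, 960 and 795, leaving out FLI1 regions that also met a clustered one. The part of this sharing in the difference was not tested.

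The difference depended on what counted as overlap. With the FLI1 summit, the highest point of a FLI1 region, required inside the H3K27ac region, the mean was 1.18 points ± 1.77 (SD, n = 4), with -0.60, 3.58, 0.52 and 1.20 in the 4 libraries (p = 0.375 by the same exact permutation test). With a summit within 500 bases of the region's centre, chosen after the data were seen, the mean was 0.112 points ± 0.613 (SD, n = 4), above 0 in 2 of 4 libraries (exact permutation p = 0.875). It reversed, to -7.80 points, among the 17 clusters left when rows of both H3K27ac lists had to reach a −log10 q of 5.

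FLI1 summits had similar densities at the centres of clustered and other distal regions, and were denser around the clustered ones. Within 0.5 kb of the centre there were 0.303, 0.359, 0.353 and 0.276 summits per kb for clustered regions, and 0.307, 0.341, 0.351 and 0.273 for the others. From 1 to 6 kb away there were 0.163, 0.192, 0.176 and 0.134 per kb, against 0.0757, 0.0884, 0.0806 and 0.0628. The ratio in these flanks was between 2.13 and 2.19 in the 4 libraries. The flanks of a clustered region hold its neighbours by the way the clusters were made, which those of the others mostly lack.

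**Figure D2:**
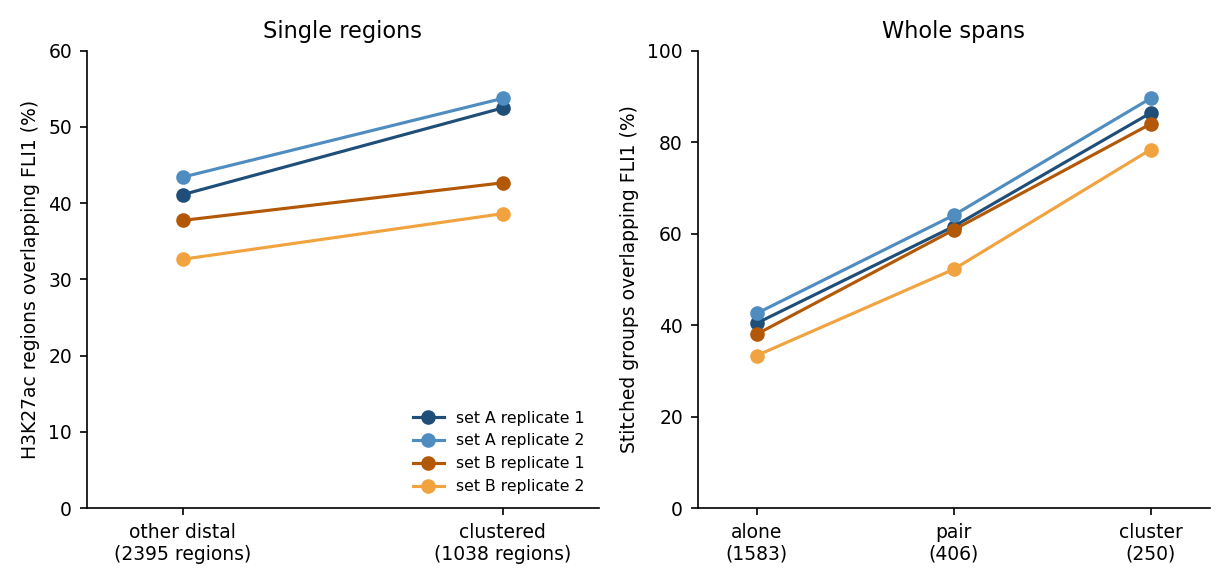
Percent with a FLI1 overlap (y axes) in each FLI1 library (lines), for H3K27ac regions inside and outside clusters (left) and for whole stitched groups by size (right). All 4 lines rise on the left by 4.93 to 11.4 points, and on the right to between 78.4% and 89.6% for clusters.

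**Figure D3:**
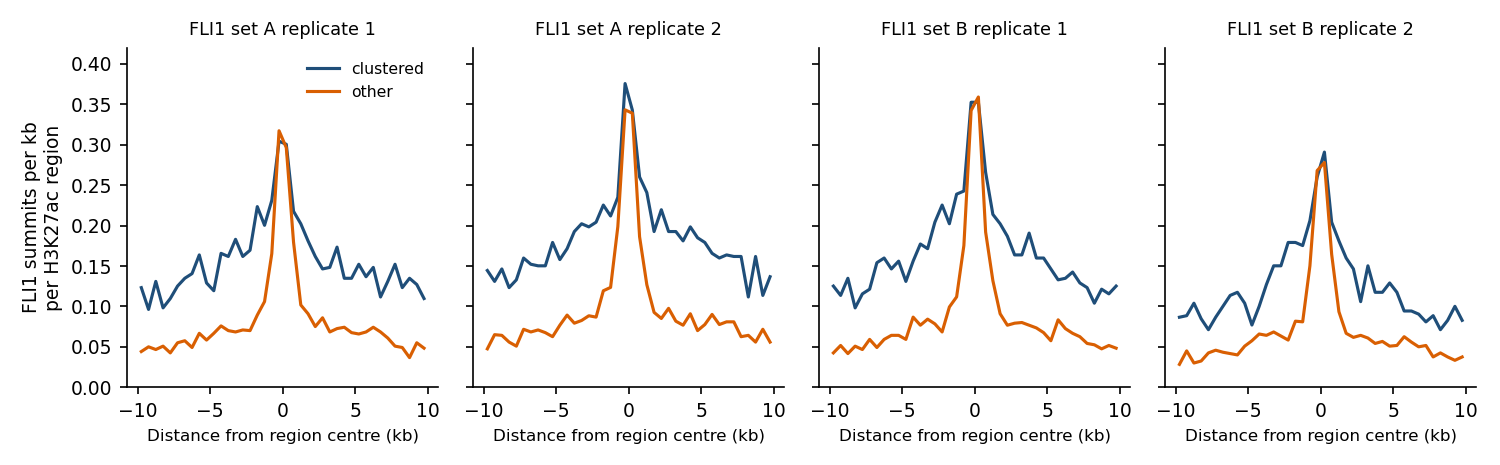
FLI1 summits per kb and per H3K27ac region (y axis) in bins of 0.5 kb by distance from the region's centre (x axis, kb), for clustered and other distal regions in each FLI1 library. The lines meet at the centre, and from 1 to 6 kb the clustered line is 2.13 to 2.19 times the other.

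FLI1 in the clusters also lay outside the kept H3K27ac regions. Of FLI1 summits inside the spans (581, 679, 662 and 500), 46.1%, 47.6%, 44.1% and 46.8% fell in the cluster's H3K27ac regions, which covered 27.7% of the span. That is 3.37, 4.06, 3.67 and 2.94 summits per 10 kb of H3K27ac region, against 1.51, 1.71, 1.78 and 1.28 per 10 kb of gap and 0.116, 0.134, 0.126 and 0.0968 over the autosomes and X. Both parts of a cluster were thus rich in FLI1 relative to the genome in each library. The gaps are not all free of H3K27ac, as they include replicate 2 regions that the rule did not keep. Counting every replicate 2 region, 53.4%, 54.6%, 51.4% and 53.0% of the summits in the spans fell in H3K27ac.

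FLI1 regions at clusters ranked slightly below those at other distal H3K27ac regions by mean percentile, mostly in set A. The mean percentile of deposited fold within a list was 50.8, 53.0, 51.9 and 52.0 at clustered regions, and 55.1, 55.9, 52.1 and 52.3 at the others. The difference was -1.92 percentile points ± 1.97 (SD, n = 4), below 0 in 4 of 4 libraries (-4.25, -2.85, -0.21 and -0.36), with an exact permutation p = 0.13, the smallest possible (adjusted 0.13). The median percentiles were 50.3, 52.6, 52.4 and 53.2 at clustered regions, and 57.8, 57.9, 53.3 and 52.7 at the others. By median, set B replicate 2 thus went the other way. A lower mean in all 4 libraries did not hold in every setting. With starts of every biotype removed, or regions kept 5 kb from a protein-coding start, 2 of the 4 libraries were above 0. With stitching up to 25 kb, at least 4 regions, or replicate 1 covering 50% of a region, 1 of the 4 was. The same held with the H3K27ac replicates swapped and without either of them.

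Some clusters held FLI1 regions among the strongest of the genome. The 5 with the highest mean percentile of their top FLI1 region lay in PDE6A, near TAS2R16, in GLG1, near SYT6 and near ETV1, with 3 to 5 H3K27ac regions each. At TAS2R16 (chr7:122966189-122972685) the top folds were 165, 272, 108 and 54.1. At PDE6A, a phosphodiesterase of rod photoreceptors (chr5:149930334-149941373), they were 160, 205, 73.0 and 55.7. At GLG1, a Golgi protein that binds growth factors (chr16:74540937-74548784), they were 203, 194, 51.2 and 44.6. The cluster nearest ETV1, itself an ETS factor, lay 134 kb from a protein-coding transcript start (chr7:13847774-13852167), with top folds of 102, 289, 51.6 and 37.2. The one near SYT6, a synaptotagmin (chr1:114195732-114199678), had 125, 119, 45.0 and 45.9. In all 5 both set A values exceeded both set B values, and folds depend on each library's depth and control. Each of the 5 spans held a GGAA run, of 11 units at PDE6A, 16 at TAS2R16, 18 at GLG1, 13 at SYT6 and 12 at ETV1, but only that at TAS2R16 had a summit within 250 bases in all 4 libraries.

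GGAA microsatellites were present in 39 clusters (15.6%), as runs of at least 4 units anywhere in the span, against 21 of 406 pairs (5.17%). Pair spans were shorter, with a median of 2.18 kb against 9.21 kb, and the part of this in the contrast was not tested. Among single H3K27ac regions the order was the other way, as 2 of 1038 clustered (0.193%) and 13 of 2395 other distal ones (0.543%) held a run. The clusters held 52 such runs, 18.1 per Mb of span compared with 5.39 per Mb over the autosomes and X. FLI1 had a summit within 250 bases of 20 of them (38.5%) in all 4 libraries, against 4.69% of the 16350 runs in the genome. The 2 sets of runs were not matched for length. Of the 41 runs with 6 or more units 19 were bound in this sense, and of the 11 runs with 4 or 5 units 1 was. Of the 32 with 10 or more units 14 were. Bound runs had a median of 11.5 units, and runs with no FLI1 summit in any library one of 13, so longer runs were not steadily more often bound. The runs lay mostly between the kept acetylated regions: 4 of 52 overlapped an H3K27ac region of the cluster, although such regions covered 27.7% of the span. Of the 7 repeats printed above, the one at SGIP1 touched a kept H3K27ac region and the others lay from 124 to 2597 bases away from one.

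At the printed repeats FLI1 was among the stronger peaks in each library. The fold at the PRKCB repeat was 52.8, 73.8, 52.0 and 29.2. At the NRDC repeat, in the gene of the protease nardilysin, it was 65.4, 165, 40.7 and 53.8. The SGIP1 repeat, in a gene of endocytosis, had 50.1, 74.9, 40.3 and 32.1. The IKZF2 repeat, in a cluster whose span ends 235 kb from a protein-coding transcript start, had 68.6, 85.0, 42.5 and 32.7. The BDP1 repeat, near a subunit of the RNA polymerase III initiation factor, had 81.2, 135, 46.4 and 31.0, and the JAK1 repeat 57.8, 77.0, 28.7 and 17.7. Set A replicate 2 was highest at each of these 6 repeats, and set B replicate 2 was lowest at 5 of them, the exception being NRDC.

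Motifs were counted at all FLI1 summits inside cluster spans, gaps included, and at summits of FLI1 regions that overlapped other distal regions. The 2 sets are thus not alike. In windows of 201 bases around the summit, both strands, the AP-1 motif TGANTCA was in 8.91% ± 1.15 of summits inside clusters (SD, n = 4), 9.44% ± 2.84 at other distal regions and 7.19% ± 1.04 of all FLI1 summits. The TEAD motif GGAATG was in 12.7% ± 0.421, 14.0% ± 1.80 and 11.6% ± 0.378. The high-affinity ETS motif CCGGAAGT was in 0.199% ± 0.141 of summits inside clusters, 0.363% ± 0.305 at other distal regions and 1.31% ± 0.50 of all, which include gene starts. Runs of 4 GGAA units were in 0.489% ± 0.593, 0.757% ± 0.899 and 0.506% ± 0.460 in this narrow window. In both set A libraries the share was 0% inside clusters and at other distal regions, so set B alone gave those means. Inside clusters the runs were in 0.192% ± 0.225 of summits in H3K27ac regions and 0.740% ± 0.915 of those in gaps. For each motif the mean inside clusters lay within 1 SD of the mean at other distal regions, taking the SD of the latter, and no test was made. The SD inside clusters was smaller for each, and for GGAATG and CCGGAAGT the difference exceeded it. The AP-1 means average opposite directions. The share inside clusters was above that at other distal regions in both set A libraries (replicate 1, 7.92% against 6.92%). It was below in both set B libraries (replicate 1, 10.57% against 11.98%).

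Of the 10 largest clusters 9 held no GGAA run, and 3 stretches of 121 bases around the strongest FLI1 region found in all 4 libraries are shown for SHB, KIRREL1 and METTL24. They are hg38, plus strand, 5′ to 3′, and capitals mark every GGAA or TTCC, the ETS core on either strand.

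SHB summit: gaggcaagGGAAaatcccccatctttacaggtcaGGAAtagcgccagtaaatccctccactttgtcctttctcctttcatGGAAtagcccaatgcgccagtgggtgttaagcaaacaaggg
KIRREL1 summit: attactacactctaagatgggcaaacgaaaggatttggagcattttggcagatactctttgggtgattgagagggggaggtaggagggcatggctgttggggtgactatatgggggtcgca
METTL24 summit: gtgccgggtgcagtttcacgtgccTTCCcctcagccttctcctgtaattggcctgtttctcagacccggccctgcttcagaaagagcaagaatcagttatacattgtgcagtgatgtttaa

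The SHB stretch (chr9:38047684-38047804) held 3 such cores, the METTL24 stretch (chr6:110329653-110329773) 1 and the KIRREL1 stretch (chr1:158019393-158019513) 0. Their FLI1 folds were below those of the JAK1 repeat, the lowest of the printed repeats in set B, in each library: 13.5, 11.2, 15.8 and 11.4 at SHB, 19.7, 18.2, 21.9 and 10.3 at KIRREL1, and 10.1, 9.65, 15.8 and 9.65 at METTL24. All 3 summits lay inside an H3K27ac region.

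Large clusters, with spans from 19.3 to 67.2 kb, differed widely in FLI1. The LINC-PINT cluster held 21, 24, 14 and 12 FLI1 regions, of which 6 were found in all 4 libraries. JAK1 held 10, 12, 18 and 15, with 7 in all 4, and METTL24 13, 19, 12 and 9, with 5 in all 4. SHB held 4, 7, 4 and 4, IGF1R 7, 5, 6 and 3, KIRREL1 4, 6, 6 and 4, and ZFHX3 2, 1, 1 and 1. Per 10 kb of span, the mean over the libraries was 2.64 at LINC-PINT, 2.98 at JAK1 and 2.88 at METTL24. It was 0.760 at SHB, 1.06 at IGF1R, 1.25 at KIRREL1 and 0.647 at ZFHX3.

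The MIRLET7BHG cluster stood apart between the sets, with 14, 16, 5 and 1 FLI1 regions. None was found in all 4 libraries, and the top folds were 8.39, 10.6, 9.73 and 7.38. At JAK1 the order was the opposite, with both set B libraries above both of set A. Over all clusters, 113 had more FLI1 regions in set A than in set B and 90 fewer. In 10 clusters FLI1 was called in each set A library but in none of set B, and in 1 the other way round.

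**Figure D4:**
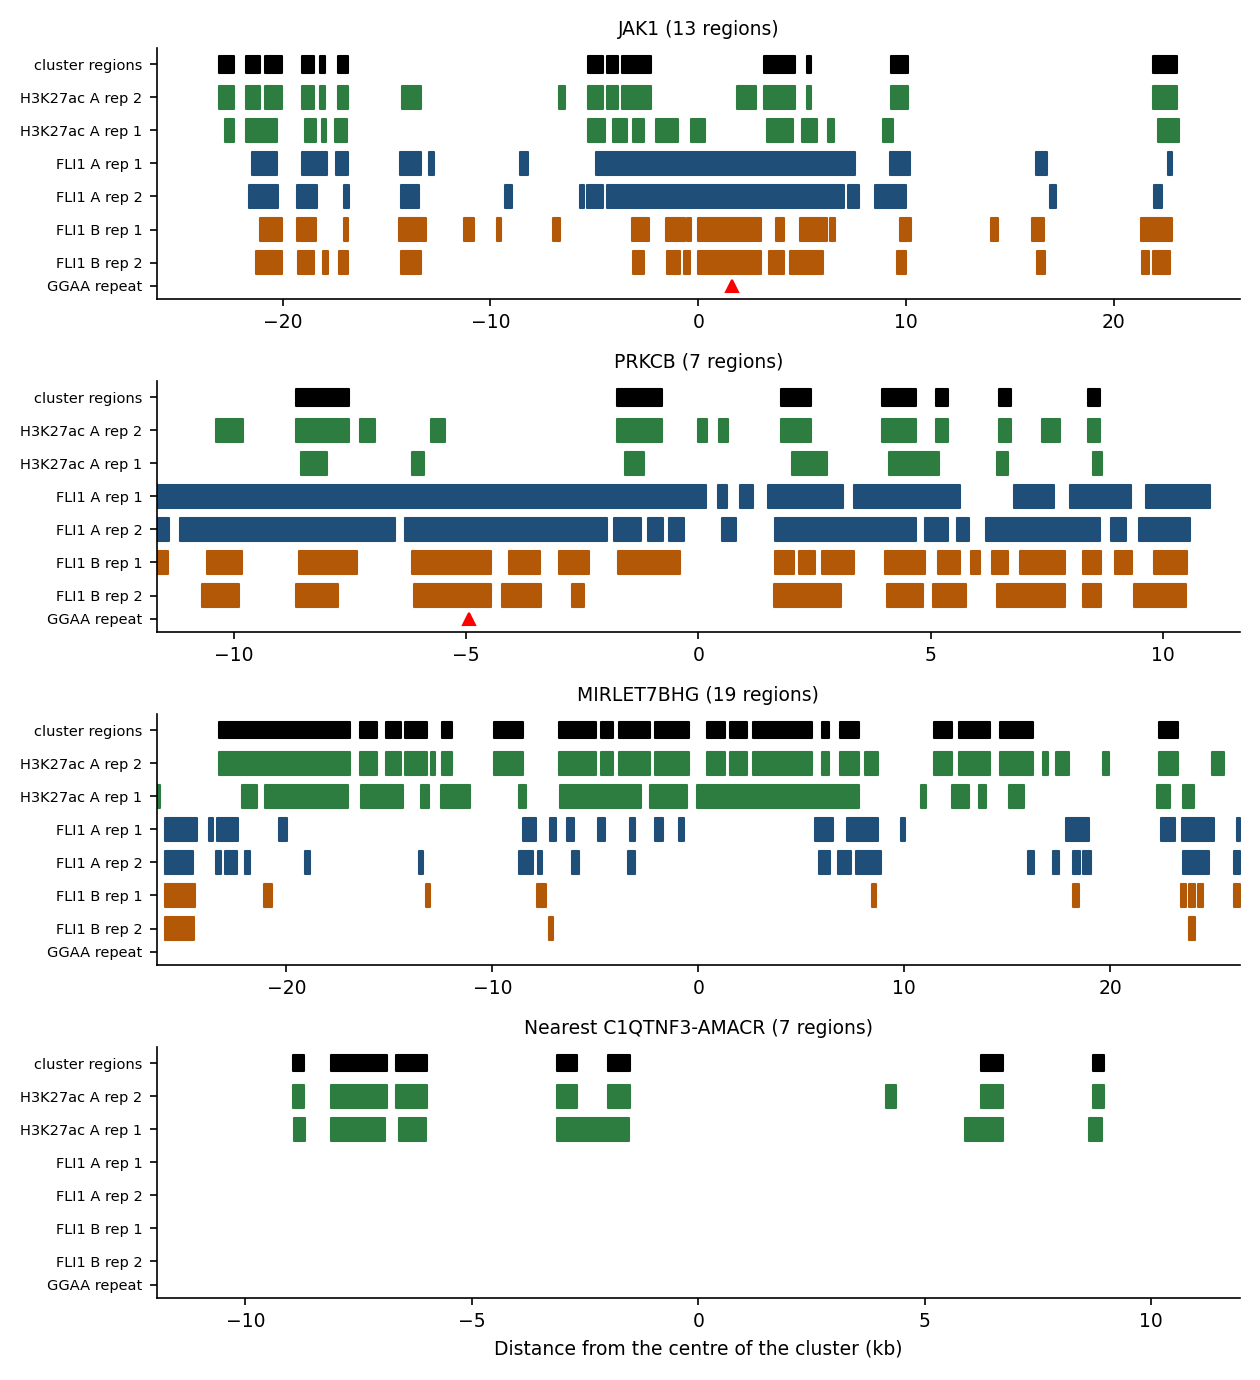
Regions of each list (rows) over 4 clusters, by distance from the cluster's centre (x axis, kb), with the members of the cluster in black and GGAA runs of at least 4 units as triangles. At JAK1 and PRKCB a repeat lies in a gap between H3K27ac regions and under FLI1 in all 4 libraries, MIRLET7BHG has 5 and 1 FLI1 regions in set B, and the cluster nearest C1QTNF3-AMACR has none.

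Of the 12 clusters without FLI1, 9 had 3 regions. The 5 with the most regions, ties being ordered by H3K27ac bases covered, were 7 in a long non-coding gene nearest C1QTNF3-AMACR (chr5:34178523-34196429), 4 in RELT, a TNF receptor family member (chr11:73383390-73389052), 4 in TMEM245 (chr9:109098220-109113366), 3 in RXRA, a nuclear receptor of retinoids (chr9:134330017-134344999), and 3 in NCKAP5L (chr12:49806568-49811406). The 7 regions nearest C1QTNF3-AMACR had H3K27ac folds in replicate 2 from 2.43 to 7.75, at percentiles of that list from 0.00864 to 97.7. Among single distal regions, 34.7% of clustered and 42.7% of other ones overlapped FLI1 in no library (40.3% over all distal regions), and 28.2% and 21.9% in all 4 (23.8% over all).

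Repressive marks hardly met the clustered H3K27ac regions themselves. H3K27me3 lay in 0 of 250 spans in either replicate. H3K9me3 touched 23 and 15 spans (9.2% and 6.0%, against 2.22% and 1.23% of the shorter pair spans), 15 of them in both replicates, but only 3 and 1 of the 1038 regions, so it lay mostly in the gaps. Among other distal regions 5 and 4 of 2395 overlapped H3K9me3 and 0 H3K27me3.

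The clusters lay near 230 distinct genes, taking for each the nearest protein-coding gene start. The median distance from the cluster's centre was 40.2 kb, and 62 clusters lay over 100 kb from any gene start. Only the outermost start of each gene was used, and other transcript starts can lie nearer. The IGF1R cluster counted as 129 kb from a start, that of PGPEP1L, but an IGF1R transcript start lay inside its span. The ZFHX3 cluster counted as 856 kb away, with a transcript start 2.88 kb from its span. Cluster centres were inside a protein-coding gene for 177 clusters (70.8%), and inside only a long non-coding gene for 35. By location, 64.5% of clustered regions lay in introns of protein-coding genes, against 56.3% of the other distal regions, and 11.6% in no gene, against 18.5%. Genes nearest to 3 clusters each included CAV1, CYRIA and RXRA. Chromosome 1 held 46 clusters, the most of any chromosome, with 33.7% of its distal regions clustered, and chromosome 3 held 2, with 9.21%.

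Starts of these genes carried FLI1 more often than those of all genes. Within 1 kb of the start, FLI1 was present in all 4 libraries at 109 of the 230 nearest genes (47.4%), against 33.8% of all 19962 protein-coding genes. H3K27ac was present in both replicates at 31 (13.5%), against 11.3%. H3K27me3 was at 5 (2.2%), against 9.48%, and H3K9me3 at 3 (1.3%), against 1.39%. FLI1 at the start was seen for 80 of the 153 genes nearest to a cluster with a FLI1 region in all 4 libraries (52.3%), and for 32 of the 81 nearest to a cluster without one (39.5%). For H3K27ac the values were 14.4% and 13.6%. When pairs were counted with the clusters, FLI1 was at the start of 45.1% of 570 nearest genes. That is near the share for clusters alone, so the higher share was not shown to be particular to clusters of 3 or more. These are counts with no test, and the gene with the nearest start need not be the one a cluster acts on.

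**Figure D5:**
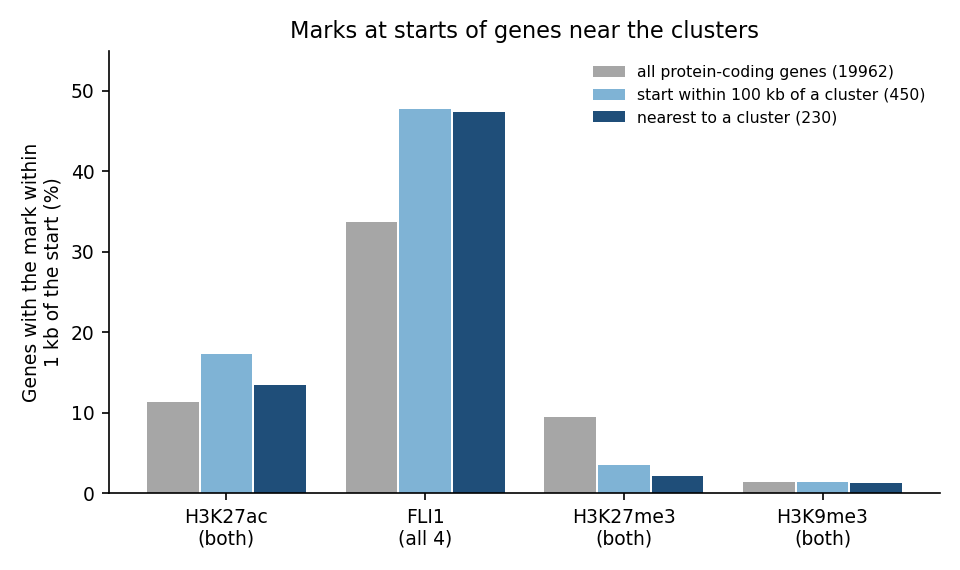
Percent of genes (y axis) with each mark within 1 kb of the gene start, for all protein-coding genes, those with a start within 100 kb of a cluster and those nearest to one. FLI1 rises from 33.8% to 47.4%, H3K27me3 falls from 9.48% to 2.2%, and H3K9me3 is near 1.3% in each.

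Among genes that the fusion is known to activate, 3 of 26 had their start within 100 kb of a cluster (11.5%, against 2.25% of all protein-coding genes): PRKCB, CAV1 and KIT. This list and the other gene lists below were chosen with earlier results of these data known. Their shares are therefore descriptions, and no test was made. With any protein-coding transcript start of the gene in place of its outermost one, a setting chosen after the data were seen, JAK1 and SOX6 were added, which made 5 (19.2%, against 2.48%). The PRKCB cluster of 7 regions over 17.3 kb (chr16:23863276-23880578) lay in an intron, with 7, 10, 14 and 9 FLI1 regions. CAV1 had 3 clusters, of 7, 5 and 3 regions. The largest, in the neighbouring CAV2 (chr7:116491443-116517018), held 12, 16, 11 and 5 FLI1 regions with top folds of 78.1, 128, 23.7 and 22.7. The cluster in KIT, a receptor tyrosine kinase, of 3 regions over 5.01 kb (chr4:54674237-54679248) held 2, 2, 3 and 2 FLI1 regions, with top folds of 80.9, 100.2, 26.3 and 23.4, and a run of 15 GGAA units with no summit within 250 bases in 1 or more libraries.

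Of 15 genes that the fusion is known to repress, 0 had a cluster within 100 kb, which at the share of 2.25% over all protein-coding genes is near the background. Core regulatory and lineage factors with a cluster within 100 kb included OTX2, POU3F1 and ZEB2. The OTX2 cluster, 4 regions over 4.09 kb beside this homeobox gene (chr14:56819949-56824033), held 1, 1, 4 and 4 FLI1 regions, with top folds of 62.5, 64.3, 18.4 and 11.4. The ZEB2 cluster, in the gene of a repressor of epithelial genes (chr2:144495309-144509293), held 2, 1, 2 and 0, with no fold above 6.92. KLF15, TCF4, NKX2-2 and MEIS1, also on this list, had no cluster.

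Of 16 focal adhesion and cytoskeleton genes 3 had one (18.8%, against 2.25% of all protein-coding genes): PXN, the adaptor paxillin, ACTN4, an actinin, and MYH9, a non-muscle myosin. Their clusters of 4, 4 and 5 regions held 3, 2, 3 and 2 FLI1 regions at PXN, 3, 2, 4 and 3 at ACTN4, and 2, 1, 4 and 4 at MYH9. None of the 6 long non-coding genes of the list (NEAT1, MALAT1, KCNQ1OT1, MEG3, H19 and SNHG1) had a cluster.

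The labelled cell type was checked against marker genes, over the gene body and 10 kb on either side. FLI1 was present in all 4 libraries at 5 of 6 Ewing sarcoma markers, the exception being CD99, and H3K27ac in both replicates at 2 of 6, PRKCB and STEAP1. Among markers of other cell types FLI1 was present in all 4 libraries at 3 of 5 mesenchymal, 1 of 3 blood and 3 of 3 epithelial genes, and H3K27ac at 1, 0 and 2, so these peak lists alone do not separate the cell types.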

How the data were processed

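The deposited files are 10 peak lists of CUT&RUN libraries of TC-32 cells. Per the deposited peak and list names, the authors called peaks per library, with the same-numbered IgG of its set as control and duplicates removed. The submitters' processing notes name cutadapt 4.4, Bowtie2, Picard 2.17.11, MACS2 2.1.1 and GRCh38, without their roles. No row ended past a chromosome of hg38. The deposited fold is the authors' ratio of signal to IgG, and the deposited −log10 p and −log10 q come from the same caller. The lowest −log10 q was 2.00. Fold was used only for percentiles within a list or as given at named loci, and read totals were not analysed here, so depth is unknown.

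Overlapping rows of a list were merged, keeping the most significant row's values, on the 22 autosomes and X. The clusters were built by the rule of the report from GENCODE release 44. FLI1 was compared between clustered and other distal regions within each of the 4 libraries, with the exact sign-flip permutation test. Tests on 20 simulated sets placed 100% of regions right, and bedtools gave the same 250 clusters. The simulated gaps were drawn to fall on the right side of the stitching limit, so this checked only the code. The clusters named were the 10 with the most regions, the 5 with the highest mean FLI1 percentile, the 5 largest without FLI1, the 6 with the longest bound GGAA run, and those within 100 kb of a listed gene. One listed gene is not reported here. The members and lists were chosen with earlier results of these data known. Alternatives covered stitching, distances, replicate support, overlap rules and left-out libraries. Python 3.11.15, numpy 2.4.6, pandas 2.3.3, pysam 0.24.0, samtools 1.23.1, bedtools 2.31.1 and matplotlib 3.10.9 were used.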

Additional observations from a re-analysis of the deposited data

How the results depend on the processing

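The number of clusters rested on how H3K27ac support was defined. Against 250, it was 656 with at least 2 regions, 115 with at least 4, 121 when replicate 1 had to cover 50% of a region, 17 with a −log10 q of at least 5, and 99 when regions within 1 kb counted as 1. Without H3K27ac replicate 2 or 1 it was 446 and 954. The clusters with a GGAA repeat, 39 in the main count, came to 20 with stitching at 5 kb, 60 and 22 with at least 2 or 4 regions, 16 with 50% cover, 1 with the −log10 q limit and 16 with regions within 1 kb as 1, and to 80 and 148 without either replicate. The share of nearest genes with FLI1 at the start was 47.4%, and 55.9% with regions within 1 kb counted as 1. The FLI1 overlap difference of 8.16 points reversed to -7.80 with the −log10 q limit, and the cause was not tested. Its other values lay above 0, down to 0.112 by summit near the centre, and from 7.08 to 9.23 without each FLI1 library in turn, and from 7.10 to 9.45 without either H3K27ac replicate. The percentile difference of -1.92 stayed below 0, at -9.03 with the −log10 q limit and -4.26 with regions within 1 kb counted as 1, from -2.49 to -1.14 without each FLI1 library, and from -1.74 to -0.92 without either H3K27ac replicate. With starts of transcripts of every biotype it was -0.25 (p = 0.875 by the exact permutation test), with 2 of 4 libraries above 0. The test took differences within each library, and so pairs both kinds of region. Beyond that, for the replicate numbers, no paired analysis was possible because no groups of samples were compared.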
